A study of Mus musculus with 30 samples.

Results

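Spp2 encodes secreted phosphoprotein 24, a protein that is released from cells. On these arrays it was read by 1 probe, Z00054226-1, which is 1 of the 25030 probes in the deposited value table. It is also 1 of the 21026 of these that, in 1 tissue or more, gave a Cy3 signal well above background on each of the 2 arrays. The gene was chosen by its high logratios in liver and kidney on these same arrays, so its own levels below are a description and carry no test. Spp2 carries a domain of the cystatin fold, related to the fetuins. The liver is known to release the protein into the blood, and it was first found in bone, where part of it sits in the mineralized matrix. It binds growth factors of the BMP and TGF-beta family, the secreted signals that act through paired type I and type II receptors on the cell surface.

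The arrays compared RNA from 15 organs and tissues of untreated adult male C57BL/6 mice, labeled as 28 weeks old, and each tissue had 2 arrays. Another age is stated in the paper. Besides liver and kidney the tissues were bladder, bone, fat, skin, lung, heart, muscle, eyes, brain cortex, cerebellum, stomach, small intestine and large intestine. Tissue RNA was labeled with Cy3. Every array also carried the same Cy5-labeled reference, in which the Universal Mouse Reference, pooled from cultured mouse cell lines, was mixed with RNA of 129 ES cells. Replicates came from different animals according to the series description, which names a single replication for bone and fat although 2 arrays of each are labeled. For those tissues the spread between arrays, and for all of them the p-values, cover only the variation between the arrays at hand. Of the 18 marker genes listed for kidney 4 had a named probe, and Ren1 and Slc22a12 were highest in kidney while Atp6v1g3 did not pass the filter on dim probes. Of 11 listed for liver 5 had one, and by logratio all except Apoa2 were highest in liver. The difference of Apoa2 between liver and the 13 other tissues was 2.64 by logratio and 8.37 on the quantile normalized Cy3 level. No adrenal marker had a named probe, so adrenal tissue carried along with the kidney was not tested. In a piece of tissue, fewer cells of a type and less RNA per cell cannot be told apart.

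The sequence that did the measuring is shown because every value below is hybridization to it. The probe is 60 bases long, and 36 of them are G or C. The capitals mark its longest run, 15 bases, found in any of the 42005 other probes of the array on either strand, and 1 other probe held it. By this comparison no other probe of the array shares a longer stretch with it.
Spp2 probe Z00054226-1: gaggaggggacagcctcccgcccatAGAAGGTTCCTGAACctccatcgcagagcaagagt

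The promoter is shown because the study asks how promoter type, a CpG island or a TATA box, goes with expression in tissues. It is RefSeq sequence of build GRCm38.p6, chr1:88406760-88407059 on the + strand, 250 bases before and 50 bases from the start of the gene. Capitals mark each CG dinucleotide.
Spp2 promoter: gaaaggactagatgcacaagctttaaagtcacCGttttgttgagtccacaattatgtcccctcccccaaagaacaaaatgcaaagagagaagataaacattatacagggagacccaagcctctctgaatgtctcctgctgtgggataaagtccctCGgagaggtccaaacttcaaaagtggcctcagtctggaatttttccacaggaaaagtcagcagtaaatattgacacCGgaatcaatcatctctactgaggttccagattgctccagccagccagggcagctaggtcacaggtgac
This window held 3 CG dinucleotides, against a median of 7 in the 32851 promoters of the same length, and 31.4% of those promoters held as few. Its G and C content was 46.3%, against a median of 52.7%. For a TATA box the study's methods use a loose pattern near the start: G or T, then A, then A or T in each of the next 3 places, on the strand of the gene and beginning 40 to 20 bases before the start. By that pattern the promoter held 1 match, TAAAT, which began 32 bases before the start, and 21.2% of all promoters held a match. The stricter letters TATAAA, searched on both strands of the whole window, were not there and were found in 13.6% of all promoters. CCAAT (37.4% of all promoters), TTGCNNAAT (2.40%) and GTTAAT, the core letters of the HNF1 motif (7.10%), were not there either. AGGTCA, core letters of sites for HNF4 and other nuclear receptors, was found with its first base at position 37 counted from the start as 1, and 16.3% of all promoters held it on either strand. These matches are letters in a window and no evidence of binding.

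Spp2 RNA was bright in liver and kidney and near the background of the array in the 13 other tissues. The value compared is the logratio, log2 of Cy3 over Cy5 after normexp background correction and loess, so that a value above 0 means more signal in the tissue than in the reference. Cy5 was well above background on only 5 of the 26 arrays outside liver and kidney and not on cerebellum replicate 1, so where both channels were dim a value near 0 gives no level relative to the reference. In liver it was 8.07 and 8.07 on the 2 arrays. In kidney it was 7.45 and 7.43. The 26 arrays of the other tissues lay between -0.21 and 1.09, with a median of 0.08, so that no array of another tissue came near the 4 arrays of liver and kidney.

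**Figure D1:**
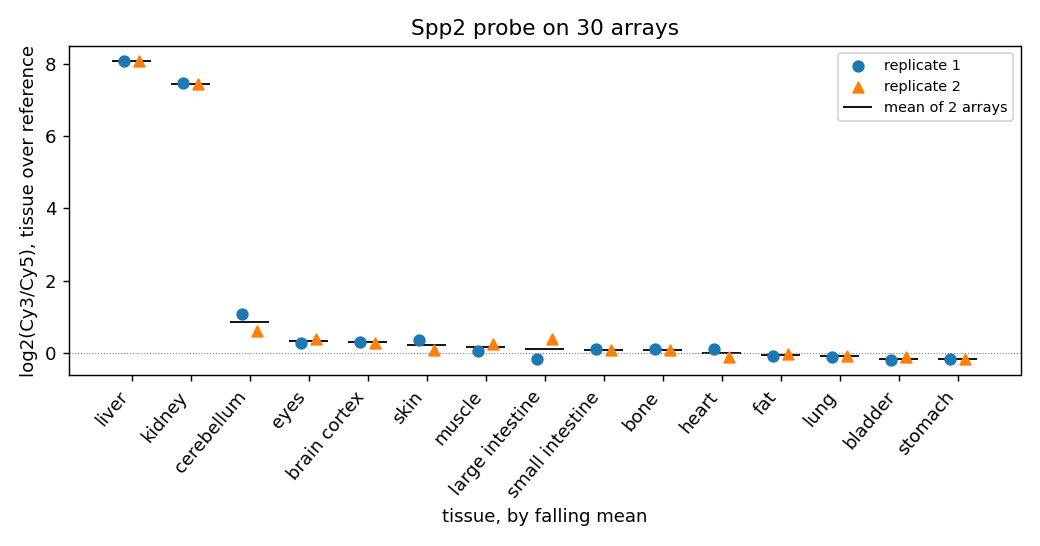
Logratio of the Spp2 probe, log2 of Cy3 (tissue) over Cy5 (reference), on each of 30 arrays, with tissues ordered by their mean; circles and triangles are replicates 1 and 2 and bars are the mean of 2 arrays. The 4 arrays of liver and kidney lie between 7.43 and 8.07, and the other 26 between -0.21 and 1.09.

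As means ± SD of 2 arrays, the logratio was 8.07 ± 0.0053 in liver, 7.44 ± 0.019 in kidney and 0.85 ± 0.34 in cerebellum. Cerebellum was the highest of the other tissues, at 1.09 and 0.60 on its arrays. By this logratio neither array overlapped those of the tissue next in order. Next came eyes (0.33 ± 0.066), brain cortex (0.29 ± 0.0085), skin (0.22 ± 0.19), muscle (0.16 ± 0.14), large intestine (0.11 ± 0.38) and small intestine (0.091 ± 0.024). From eyes downward the mean of each tissue lay closer to the next than the SD of Spp2 pooled over the tissues, which was 0.15. The order of adjacent tissues among these 12 is thus not resolved. The ends lay apart, with eyes at 0.29 and 0.38 and stomach at -0.17 on both arrays. The lower end held bone (0.087 ± 0.014), heart (0.0031 ± 0.15), fat (-0.049 ± 0.037), lung (-0.098 ± 0.032), bladder (-0.16 ± 0.060) and stomach (-0.17 ± 0.0039). Bone, the tissue in which the protein was first described, lay at 0.097 and 0.076, within the range of the other dim tissues. The places of bone and cerebellum depended on the processing. By the scanner's processed signals the logratio was 0.79 and 2.28 in bone and 2.43 and 1.31 in cerebellum, so their arrays overlapped. In the authors' value table the mean log10 level of bone (2.14) came next after cerebellum (2.26), above brain cortex (2.03) and eyes (1.99). On the quantile normalized Cy3 level bone, at 6.51 and 6.81, lay below cerebellum, at 6.99 and 6.94.

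The Cy3 spot itself, in scanner units with background included, read 16183 and 14913 in liver and 21940 and 23067 in kidney. On the other 26 arrays it read from 62.6 to 151, with a median of 74.0. The brightest of these were the cerebellum arrays, at 151 and 131. The scanner software called the Cy3 spot well above background on all 4 arrays of liver and kidney and on 11 of the other 26 arrays. Among the other 13 tissues it was so on both arrays in 3 (cerebellum, eyes and bone), on 1 array in 5, and on neither in 5. In those 5 (bladder, fat, heart, small intestine and stomach) the spot was not well above background, and only a bound can be given for them. The size of the bound depended on the scaling. On the quantile normalized Cy3 level liver was at least 168-fold and kidney at least 194-fold higher than any of the 5 tissues. On the Cy3 level after loess and normalization of the channel between arrays (Aquantile), the bounds were 343-fold for liver and 309-fold for kidney. Both set the mean of the bright arrays against the dim value, or the lowest signal called well above background on that array where this was higher, and dyes were not balanced. Against cerebellum, measured on both arrays, liver was 121-fold and kidney 141-fold higher on the first scale, and 213-fold and 192-fold on the second.

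The reference channel was not equal on all arrays at this spot, although every array received the same reference RNA. Cy5 read 228 and 234 on the liver arrays and 333 and 293 on the kidney arrays. On the other 26 arrays it read from 71.2 to 129, with a median of 85.0. Relative to that median it was 2.68-fold and 2.75-fold on the liver arrays and 3.91-fold and 3.44-fold on the kidney arrays. With the local background subtracted, these folds were 4.88 and 5.05 in liver and 7.50 and 6.53 in kidney. Cy5 was thus raised where Cy3 was bright and most raised in kidney, where Cy3 was brightest. Spp2 was not alone in this. Among other probes with a dim reference (median Cy5 of at most 150 over the 26 other arrays) and a Cy3 signal of at least 10000, Cy5 lay above all 26 other arrays for 88.4% and 89.3% of probes in liver and 82.9% and 79.3% in kidney. Among those with a Cy3 signal under 1000, the share was 6.30% and 6.40% in liver and 4.84% and 4.76% in kidney. The median Cy5 rise of those bright probes was 20.2-fold and 20.8-fold on the liver arrays and 17.4-fold and 16.7-fold on the kidney arrays, well above that of Spp2 with background included in both. The cause of the raised Cy5 was not tested.

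**Figure D2:**
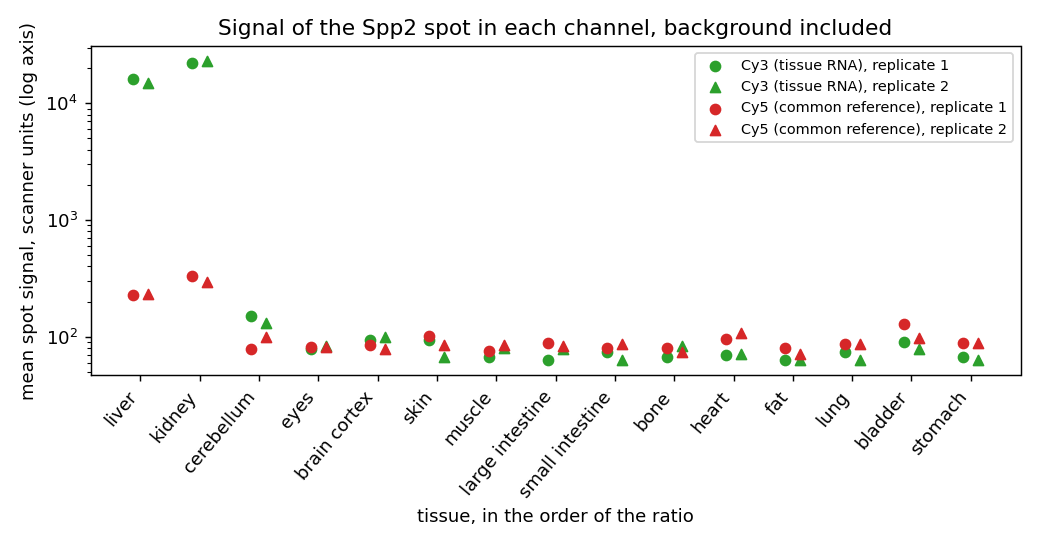
Mean signal of the Spp2 spot in scanner units on a log axis, background included, for Cy3 (tissue) and Cy5 (reference) on each of 30 arrays, tissues in the order of the logratio. Cy3 is between 14913 and 23067 in liver and kidney and at most 151 elsewhere, and Cy5 is between 228 and 333 in liver and kidney and at most 129 elsewhere.

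Whether liver or kidney had more Spp2 RNA depended on how the same 4 arrays were processed. By logratio after loess, liver was higher by 0.63, with no overlap between the arrays. From the scanner's own processed signals the difference was 0.92, and it was 0.92 in the authors' value table after conversion to log2. With each array centered on its median in place of loess it was 0.14, with liver at 6.91 and 6.69 and kidney at 6.58 and 6.74, so the arrays overlapped. On the Cy3 level after loess and Aquantile liver was higher by 0.15, at 15.10 and 15.13 against 15.08 and 14.86 in kidney. On the Cy3 level alone, quantile normalized, the order turned, with liver at 13.92 and 13.86 and kidney at 14.18 and 14.03, a difference of -0.21. Under all 7 kinds of processing both tissues stood above all other arrays, whose highest value was 1.09 by logratio and 6.99 on the quantile normalized Cy3 level. The 2 liver arrays shared a slide with heart and the 2 kidney arrays another with bladder, so for liver against kidney slide and tissue cannot be told apart. Heart and bladder were not well above background, so within each slide only bounds can be given. On the quantile normalized Cy3 level liver was at least 176-fold above heart and kidney at least 211-fold above bladder.

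**Figure D3:**
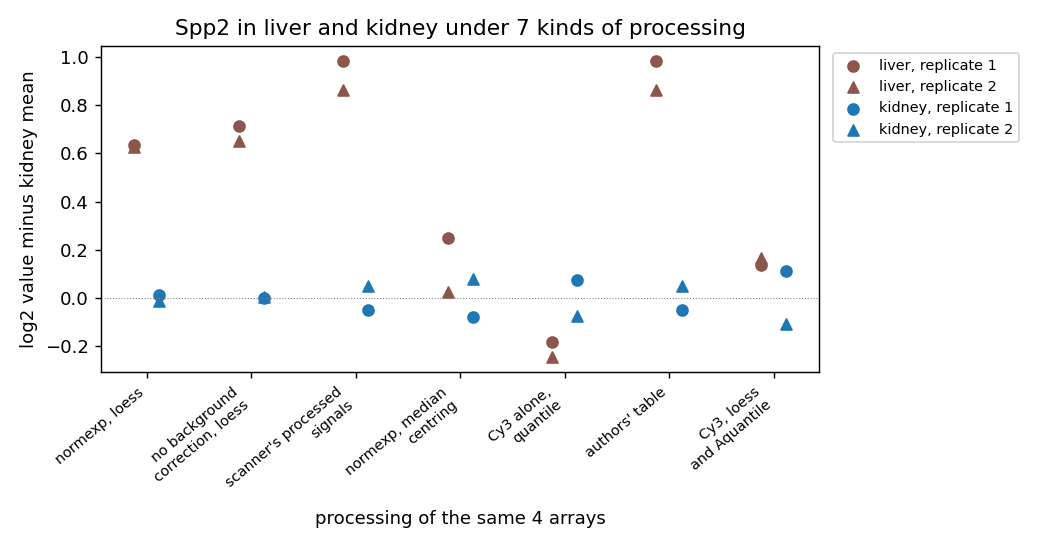
Spp2 on the 2 liver and 2 kidney arrays under 7 kinds of processing, as the log2 value minus the kidney mean of the same processing; circles and triangles are replicates 1 and 2. Liver lies 0.63 above kidney by logratio after loess, overlaps kidney after median centering and lies 0.21 below it on the quantile normalized Cy3 level.

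Against the mean of the 13 other tissues Spp2 differed by 7.94 in liver and 7.31 in kidney by logratio, as a description only, since 5 of those tissues were not well above background. The fit over all probes (limma, 1 coefficient per tissue) called 5.58% of probes higher in liver than in the 13 tissues and 4.79% lower, at an adjusted p under 0.05 and a log2 difference of at least 2. For kidney it called 4.44% higher and 2.45% lower. Directly between the organs, at a difference of at least 1, it called 8.38% of probes higher in liver and 10.4% lower. Of the calls between the organs 44.6% were thus higher in liver, and 27.4% were after median centering, which moved the median difference of all probes from 0.03 to -0.09. Over all probes the median difference from the 13 tissues was -0.10 in liver and -0.11 in kidney.

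Of the plasma proteins that liver is known to make, 8 of 105 listed genes had a named probe. In liver 7 of the 8 were called higher than in the 13 other tissues, against 5.58% of all probes, with a median difference of 4.46 on the log2 scale. In kidney 1 of the 8 was called higher, against 4.44% of all probes, with a median difference of 0.16. That 1 gene was F13b, the B subunit of coagulation factor XIII, which circulates in plasma. Its logratio was 7.95 and 7.64 in liver, 6.68 and 7.27 in kidney and at most 0.20 on the other 26 arrays. Its probe was well above background on both arrays in only 2 tissues, liver and kidney, so it passed the filter through them and its fitted differences rest on values near background elsewhere. Like Spp2, it was bright in both organs and dim in the rest.

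The other plasma proteins were not called higher in kidney by logratio. Serpinc1, antithrombin, had logratios of 5.25 and 5.36 in liver, 0.18 and 0.32 in kidney and at most 0.47 elsewhere. It was well above background on both arrays in 2 tissues only, among them liver, and on neither kidney array. C4bp, which restrains complement, was at 7.14 and 7.24 in liver and -0.66 and -0.58 in kidney, where it was not well above background. The highest of the other arrays reached 6.50, and stomach had the next highest mean. Igfbp2, a carrier of insulin-like growth factors, was at 2.17 and 2.12 in liver and -2.75 and -2.87 in kidney, and its highest mean was in bladder (2.85). F5, coagulation factor V, was at 5.77 and 5.83 in liver and 2.84 and 2.42 in kidney, with the mean of bone (3.78) between them. F5 did not pass the fold threshold in kidney by logratio (a difference of 1.55) and did with the authors' value table (2.19). Apoa2, an HDL apolipoprotein, was at 3.71 and 3.85 in liver and 1.30 and 1.31 in kidney, and its highest mean logratio was in cerebellum. Its difference between liver and kidney was 2.48 by logratio and 8.08 on the quantile normalized Cy3 level. Directly between the organs 7 of the 8 genes were called higher in liver, against 8.38% of all probes. The call of F5 was lost with the authors' value table (adjusted p 0.073 by limma) and with the scanner's processed signals (0.081). With slide as a random block those of F5 and Apoa2 were lost (adjusted p 0.22 and 0.076), which left 5 of the 8. F13b was not called, with a difference of 0.82 ± 0.17 (SE), which became 1.11 and a call without kidney replicate 2.

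Gdf2 (BMP9), a ligand of the BMP family that liver releases, was on the same list and was the gene not called. It had logratios of 1.28 and 1.59 in liver and 0.14 and -0.00052 in kidney. Muscle came next after liver with a mean of 1.17, and the highest array outside liver and kidney, at 1.30, overlapped liver. It differed from the 13 tissues by 1.35 ± 0.13 (SE) in liver, below the fold threshold, and was called higher in liver than in kidney by 1.37 ± 0.17 (SE, adjusted p 4.4e-06 by limma), a call that was lost after median centering (difference 0.92). With the authors' value table its difference in liver was 2.02, which passed.

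Spp2 is known to bind factors of the BMP and TGF-beta pathway, and 9 of 76 listed genes of that pathway had a named probe. None was called higher in liver, against 5.58% of all probes, or in kidney, against 4.44%, and with 9 genes a count of 0 is near these shares. The median difference was -0.24 in liver and -0.47 in kidney. Ltbp3, which holds latent TGF-beta in the matrix, was called lower in liver, at -3.18 and -3.03, against -1.73 and -1.74 in kidney. Inhbb, a subunit of activin and inhibin, was highest in fat, lay at -1.75 and -1.38 in liver and -1.39 and -1.16 in kidney, and was called in neither. Among the receptors, Acvr1, a type I receptor, was at 0.51 and 0.25 in liver and -0.63 and -0.89 in kidney and was called higher in liver than in kidney. That call was lost after median centering (adjusted p 0.070) and on the quantile normalized Cy3 level (difference 0.99, under the threshold of 1). Acvrl1, the ALK1 receptor of endothelium, was at 1.04 and 0.99 in liver and 2.23 and 2.21 in kidney and was called lower in liver than in kidney, a call lost with slide as a random block (adjusted p 0.062 by limma). Bmpr2 and Acvr2b, type II receptors, differed between the organs by 0.49 and -0.01 and were not called, nor were Acvr1b and Acvr2a (-0.62 and 0.57). After median centering Acvr1b was called lower in liver than in kidney (-1.11, adjusted p 0.024 by limma).

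Of 32 genes of bone matrix and mineralization 3 had a named probe. Fn1, fibronectin, which hepatocytes also release into plasma, was at 0.02 and -0.29 in liver and -4.71 and -4.67 in kidney. It was called higher in liver, by 2.64 ± 0.51 (SE). Acp5, tartrate-resistant acid phosphatase of osteoclasts and macrophages, was at 4.02 and 4.10 in liver and 3.18 and 2.86 in kidney and was also called higher in liver, by 2.68 ± 0.20 (SE). In kidney its difference was 1.64, below the threshold, and it was 2.05 with the authors' value table. Fmod, fibromodulin, was highest in bone and was called in neither organ (-1.14 in liver, -0.69 in kidney). The only gene of the cystatin fold list with a named probe was Spp2 itself, so the fetuins and kininogens are not described here.

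Of 24 transcription factors listed for liver and kidney 2 had a named probe, both of them nuclear receptors. Nr5a2 (LRH-1), a regulator of bile acid synthesis, was at 1.097 and 1.245 in liver, -1.31 and -1.44 in kidney and between -1.80 and -0.22 elsewhere. Nr1i3 (CAR), a sensor of foreign compounds, was at 4.54 and 4.70 in liver, 0.12 and 0.18 in kidney and up to 3.97 elsewhere, with small intestine next in order. Neither gene was well above background on a kidney array, and Nr5a2 was so on both arrays in only 2 tissues, among them liver. Both were called higher in liver, against 5.58% of all probes (differences of 2.28 and 4.10), and neither in kidney, against 4.44% (-0.27 and -0.37). After median centering the difference of Nr5a2 in liver was 1.67, below the threshold.

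For the marker genes of the organs themselves, all 5 liver markers with a probe were called higher in liver, against 5.58% of all probes, and none was in kidney, against 4.44%. Cps1, the first enzyme of the urea cycle, was at 9.06 and 8.87 in liver, with small intestine next in order. In kidney Cps1 was at -0.36 and -0.60 and not well above background. Otc, the urea cycle enzyme that follows it, was at 3.64 and 3.58 in liver and 0.18 and -0.03 in kidney. Of the kidney markers, Ren1 (renin) was at 3.29 and 3.74 in kidney and 0.17 and 0.39 in liver, and it was called higher in kidney by 3.43 ± 0.12 (SE). Slc22a12, the urate transporter URAT1, was at 1.64 and 2.26 in kidney and 1.00 and 1.29 in liver. It did not pass the fold threshold in kidney by logratio (1.59) and did on the quantile normalized Cy3 level (2.36). Of the lists for blood and pancreas, Ptprc and Amy2a5 had a probe, and neither was called in either organ.

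The neighbors of Spp2 on chromosome 1 were taken as the 10 measured genes on each side, in the order of the mouse gene table. Measured here means having a named probe, and genes without one were skipped. Of these 20 genes 17 passed the filter on dim probes. In liver 1 of 17 was called higher than in the 13 tissues, against 5.58% of all probes, and in kidney 1 of 17, against 4.44%. None was called lower in either organ, against 4.79% and 2.45%. With the authors' value table the count in liver became 2 of 17 higher, against 7.65% of all probes, and 4 of 17 lower, against 9.48%, and in kidney it stayed at 1 higher. By logratio both calls were Ugt1a6a, a UDP-glucuronosyltransferase that couples glucuronic acid to drugs and bile pigments and lies 5 measured genes before Spp2. Its logratio was 3.14 and 3.22 in liver, 2.59 and 2.54 in kidney and at most 2.56 elsewhere. It was 3.49 ± 0.17 (SE) higher in liver and 2.88 ± 0.17 higher in kidney. The genes of the Ugt1 cluster share their last exons, so its probe may read more than 1 of them. Ugt1a2, of the same cluster, differed by 0.47 in liver and -0.12 in kidney.

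The nearest measured neighbors were as follows. Trpm8, the cold-sensing ion channel and the nearest measured gene before Spp2, did not pass the filter. Glrp1, the nearest measured gene after Spp2, differed by 0.17 in liver and -0.41 in kidney. Hjurp, a chaperone of centromeric histone that lies 2 measured genes before Spp2, was at 1.02 and 1.03 in liver and -1.69 and -1.95 in kidney. It was called higher in liver than in kidney by 2.85 ± 0.31 (SE). Sh3bp4, 5 measured genes after Spp2, was called lower in liver than in kidney by -1.36 ± 0.26 (SE). That call was lost with slide as a random block (adjusted p 0.085 by limma). The median difference over the 17 genes was 0.13 in liver and -0.19 in kidney.

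**Figure D4:**
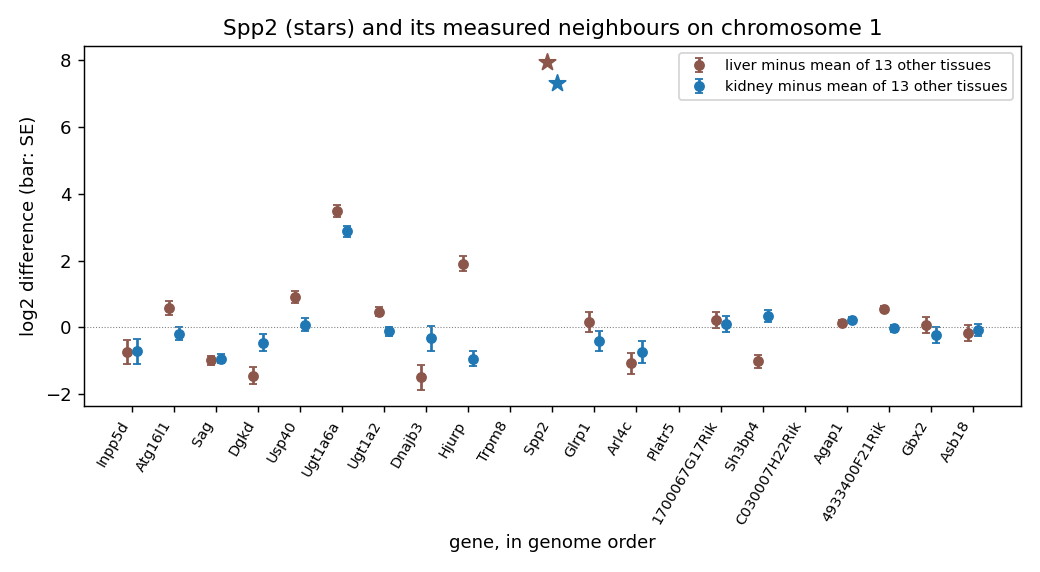
Log2 difference of liver and of kidney from the mean of the 13 other tissues for the measured genes around Spp2 in genome order; bars are the SE of the fit, stars are Spp2 (no test), and genes without a point did not pass the filter on dim probes. Spp2 stands at 7.94 and 7.31, Ugt1a6a at 3.49 and 2.88, and by logratio no other neighbor passed the threshold of 2 in either organ.

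Genes with a pattern over the tissues like that of Spp2 were ranked by Pearson's r of the 15 tissue means. These means share the reference RNA and the arrays, and r here is set mostly by the 2 bright tissues, so it is given as a description without a p-value. Of 21025 probes 44 had an r of at least 0.95, against a median r of -0.06. That number was 37 after median centering, 40 on the quantile normalized Cy3 level and 12 with the authors' value table. Only 6 of the 44 had a symbol in the lists used here. The highest r, 0.997, belonged to a probe without a symbol, Z00048280-1, with logratios of 7.52 and 7.23 in liver, 7.50 and 7.33 in kidney and at most 0.33 elsewhere. No probe reached a Spearman rho of 0.95 with Spp2. But rho gives weight to the order of the 12 dim tissues from eyes downward. Adjacent tissues among them are not resolved, so rho says little about the likeness.

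Among named genes F13b came first, with an r of 0.996 and a rho of 0.67. Next was 0610031O16Rik (r 0.983), at 4.69 and 5.17 in liver, 3.97 and 3.22 in kidney and at most 0.47 elsewhere. Aspdh, an aspartate dehydrogenase domain gene formerly 0610012D14Rik (r 0.971), was at 3.98 and 4.14 in liver and 3.39 and 3.27 in kidney. Pdilt, a relative of protein disulfide isomerase known from testis (r 0.963), was at 5.44 and 5.48 in liver and 3.95 and 3.84 in kidney. In all these genes liver lay above kidney by logratio. On the quantile normalized Cy3 level, where Spp2 turned to -0.21, liver stayed higher by 0.53 in F13b, 0.98 in 0610031O16Rik, 0.65 in Aspdh and 1.96 in Pdilt.

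Acot3 and Them7, both with an r over 0.95, had a higher mean in kidney by logratio. Acot3, a peroxisomal acyl-CoA thioesterase (r 0.958), was at 0.90 and 2.02 in liver and 1.36 and 2.36 in kidney, so its arrays overlapped, and on the quantile normalized Cy3 level liver was higher by 0.27. Them7, a thioesterase family gene (r 0.957), was at 4.80 and 5.11 in liver and 6.26 and 6.09 in kidney, and on the quantile normalized Cy3 level it was also higher in kidney, with a difference of -1.97. Below 0.95 came Gcdh (r 0.939), a mitochondrial enzyme of lysine breakdown, at 5.58 and 5.77 in liver and 4.79 and 4.58 in kidney. It was also present in other tissues, up to 2.08. The last 3 of the 10 were 4933438K21Rik (r 0.927), Rida (r 0.924), an imine deaminase, and Gm5524 (r 0.921). Rida was at 5.39 and 5.63 in liver and 5.48 and 5.31 in kidney, so the organs overlapped, and Gm5524 was at 5.89 and 6.16 in liver and 2.88 and 2.08 in kidney. Of the 10 genes 9 had a promoter in the RefSeq table, and these held 0 to 10 CG dinucleotides with a median of 3, the number found for Spp2. In 7 of the 9 the number was at or under the median of 7 over all promoters, 1 of the 9, Them7, held TATAAA, and 4 of the 9 held the loose TATA pattern near the start.

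**Figure D5:**
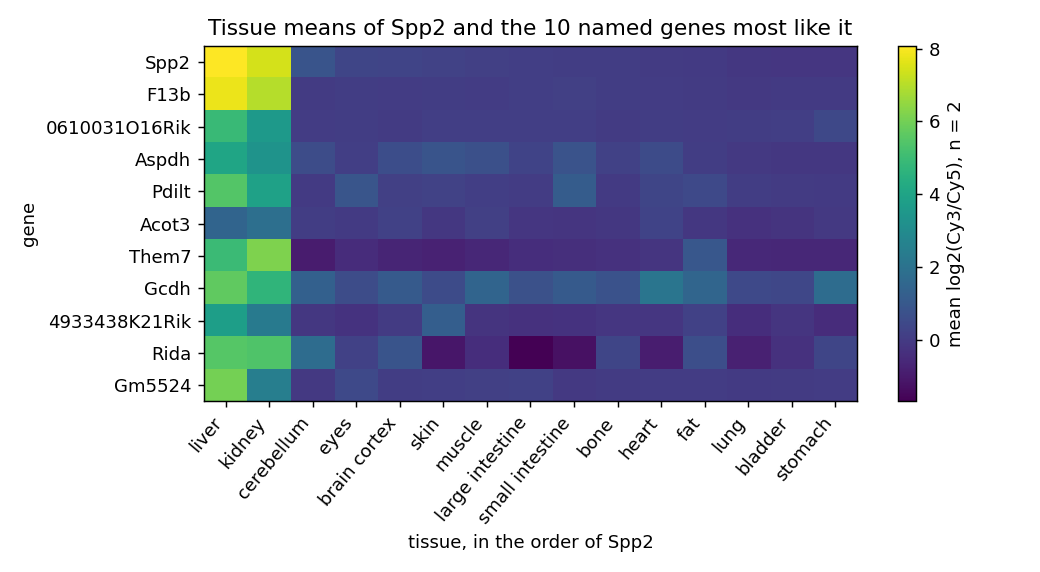
Mean logratio of 2 arrays per tissue for Spp2 and the 10 named genes with the highest Pearson's r to it over 15 tissues, tissues in the order of Spp2. Spp2 is at 8.07 in liver and 7.44 in kidney and F13b at 7.79 and 6.98, and Gcdh and Rida are also present in other tissues.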

How the data were processed

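The authors extracted the spots with Agilent Feature Extraction 9.5.1.1, and the deposited spot files give mean signal and local background per channel as an intensity, plus flags of other kinds. The deposited value table is on a log10 scale. Over 12759 bright probes its values tracked log10 of the scanner's Cy3 signal (slope 0.997), with the array-to-array change of Cy5 taken off (slope -0.992). It was converted to log2 as an alternative.

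Here normexp (offset 50) and loess were applied to the mean signals, without controls and 475 outlier spots, and values were expressed as log2(Cy3/Cy5). Dyes were never swapped, and no noncontrol spot was saturated. Array medians were 85.7 to 175 in Cy3 and 163 to 236 in Cy5, and replicates correlated across probes at 0.671 to 0.991. The number of arrays limits the precision. The filter on dim probes kept 21026 probes, 84.0% of the value table. Symbols came from the study's probe lists, used for names alone, and covered 5049 of these. In the RefSeq gene table (GRCm38.p6) 3167 of the symbols were current, 1535 were synonyms and 347 were in neither. That table gave names and the order of genes only.

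Limma 3.58.1 in R 4.3.3, tested on simulated data, was fitted over 30 arrays with 15 residual degrees of freedom. The 3 comparisons were two-sided, with Benjamini-Hochberg adjustment over the probes kept. The gene, lists, tests and rules were chosen with earlier results of these data known. The named genes are Spp2, the 10 named probes most like it and the measured members of the lists. Some members of the lists are counted and not reported by name here. Alternatives changed the background correction, normalization, channel, source, filter, blocks (11 slides, 5 scan days) and replicates. The Cy3 level after loess and Aquantile, the bounds on the quantile normalized Cy3 level, the Cy5 folds with background subtracted, and the fit without large intestine, fat and bone were chosen after seeing the data.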

Additional observations from a re-analysis of the deposited data

How the results depend on the processing

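The difference of Spp2 between liver and the 13 other tissues was 7.94 on the log2 scale, and it was 8.29 with the scanner's processed signals, 8.26 with the authors' value table, 6.56 after median centering, 7.38 on the quantile normalized Cy3 level and 8.40 on the Cy3 level after loess and Aquantile. For kidney it was 7.31, and it was 6.42 after median centering, 7.60 on the quantile normalized Cy3 level, 8.25 on the Cy3 level after loess and Aquantile and 7.61 within its slide against bladder, where the spot was not well above background. Liver minus kidney was 0.63, 0.92 with the processed signals and with the authors' table, 0.14 after median centering and 0.15 on the Cy3 level after loess and Aquantile. It reversed to -0.21 on the quantile normalized Cy3 level, and the cause was not tested. Leaving out each array of liver and kidney in turn gave 7.94 to 7.95 for liver, 7.30 to 7.33 for kidney and 0.62 to 0.64 for liver minus kidney. Without large intestine, fat and bone the differences were 7.92 and 7.29.

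The fit called 2181 probes for liver, 1449 for kidney and 3955 between them. With the processed signals it called 3675 for liver and 2424 for kidney, and 3602 and 2374 with the authors' values. The cause was not tested. With slide as a random block (consensus correlation 0.69) the calls between the organs fell to 2584. Leaving out each array gave 2157 to 2202, 1441 to 1448 and 3437 to 3701 calls. Of the genes named above, the calls between the organs of Acp5, Acvrl1, Apoa2, F5 and Sh3bp4 were lost with slide as a random block, with adjusted p of 0.17, 0.062, 0.076, 0.22 and 0.085 (limma). The call of Acp5 between the organs was also lost without liver replicate 2 (difference 0.998) and without kidney replicate 2 (0.88), after median centering (0.51), with the authors' values and the processed signals (0.95 in each) and on the quantile normalized Cy3 level (adjusted p 0.051). Without large intestine, fat and bone, Hjurp was called higher in liver (2.01), Acp5 higher in kidney (2.26) and Igfbp2 lower in kidney (-2.15). The number of probes with an r of at least 0.95 to Spp2 was 44, and it was 12 with the authors' table and 0 by Spearman's rho.

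With the replicate number as a block the fit called 2181, 1449 and 3975 probes. Arrays of different tissues with the same number had deviations that correlated between -0.25 and 0.34 over 105 pairs of tissues, above 0.1 in 33. That does not meet the condition that every pair lies above 0.1, so the numbers were not used to pair the arrays, and whether tissues with the same number share an animal was not tested.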
